A study of Mus musculus with 12 samples.

Results

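Ascorbic acid (AA, vitamin C) given alone was compared with its DMSO control in mouse pre-iPSCs. The comparison takes the 3 AA libraries and the 3 DMSO libraries by their titles, which is 6 of the 12 libraries of the series, and pairs them by the replicate letter (A, B or C). Pre-iPSCs are clonal lines derived from embryonic fibroblasts that carry retroviral Oct4, Sox2, c-Myc and Klf4, and they are arrested late in reprogramming with a silent Nanog-GFP reporter. The cells of all 4 conditions, the controls included, carry these transgenes. AA was given at 50 μg ml−1 for 48 h in embryonic stem cell medium without feeder cells, and RNA was collected on day 2. The other 6 libraries, used here as a second reading of AA, come from cells given 2i or AA+2i, where 2i stands for PD0325901, which blocks MEK, at 1 μM together with CHIR99021, which blocks GSK, at 3 μM. The letters are the replicates of the labels, biological ones by the study's methods. The main test sets the difference between AA and DMSO against a spread. That spread is what is left between all 12 libraries once condition and letter are accounted for, drawn toward that of other genes.

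Ascorbate is a cofactor that keeps the iron of Fe(II) and 2-oxoglutarate dependent dioxygenases in its reduced state. This enzyme class holds the prolyl hydroxylases of collagen and of HIF, the Jumonji histone demethylases and the TET proteins, which oxidise methylated cytosine. AA is known in reprogramming for raising the yield of iPSCs and for helping partly reprogrammed cells to reach the pluripotent state.

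The 6 libraries held between 16173322 and 54392719 expected counts (the reads that the RSEM program assigned to each gene), and between 11263 and 11942 genes reached 1 TPM (a level per transcript length, scaled so that every library has the same sum). The libraries differed in how counts depended on the GC content of transcripts. At 65% GC the smoothed log2 deviation from the mean of the 12 libraries was −2.27 in DMSO A and −2.23 in AA A, 0.56 and 0.30 in the B libraries, and −0.28 and 0.94 in the C libraries. The A libraries thus stood apart together, and AA C and DMSO C differed from each other. The summed TPM of the 9 pluripotent cell markers was between 2026 and 9961 with DMSO and between 3594 and 6499 with AA, most of it from Pou5f1 (Oct4). Reads of the retroviral cDNAs cannot be told apart here from those of the endogenous Pou5f1, Sox2, Klf4 and Myc. The 10 fibroblast markers summed to between 6.79 and 15.2 TPM with DMSO and between 10.6 and 20.0 with AA. The mean with DMSO and AA was 5.13 and 12.6 TPM for Thy1, 3.13 and 1.63 for Prrx1 and 1.27 and 1.30 for Col1a2. The higher sum with AA thus came from Thy1, and none of these genes was called. Lum was at 0 in all 6 libraries, and Col1a1, Col3a1, Postn, Dcn, Twist2 and Pdgfrb had a mean under 1 TPM in both groups. The 5 markers of primitive endoderm summed to at most 0.73 TPM with DMSO and at most 0.55 with AA. The 4 trophoblast markers summed to between 1.37 and 4.56 TPM with DMSO, most of it from Gcm1. With AA they summed to between 0.50 and 0.94, most of it from Gcm1 and Elf5. The 3 muscle markers summed to at most 0.71 TPM and the 3 germ cell markers to at most 1.44 in any of the 6 libraries. Of the other marker groups, the neural sum (18.2 to 28.0 TPM) came mainly from Sox1, and the sum for blood and immune cells (9.63 to 28.7 TPM) mainly from Cd68. Part of a change in a bulk library can come from the number of cells of a type or from the RNA per cell, which cannot be told apart.

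AA raised 315 genes and lowered 279 of the 13400 tested (2.35% and 2.08% of the tested genes). A gene was called where its adjusted p was under 0.05 in edgeR's quasi-likelihood test with the letter as a block and Benjamini-Hochberg adjustment. All of the called genes moved in the same direction in the 3 letters, compared with 48.9% of all tested genes. The rises were larger than the falls. The median size was 1.78 on the log2 scale for the genes that rose and 1.18 for those that fell, and 124 rises but only 42 falls were of 2 or more. The TPM of the 3 AA libraries lay wholly above the 3 DMSO libraries for 276 of the 315 genes, and wholly below them for 190 of the 279. The call used these same libraries, so this separation is no further evidence. Its share over all tested genes was not counted. Over all tested genes the median log2 fold change was −0.01.

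The number of calls rested on the block and on each letter. Without the block 116 genes were called higher and 63 lower (0.866% and 0.47% of the tested genes), of which 115 and 63 were also called with it. With a GC curve per library and the block, 747 and 689 were called (5.57% and 5.14%), and these included 312 of the 315 and 275 of the 279. Without letter A, 122 genes were called higher and 65 lower, without B 54 and 40, and without C 10 and 0 (at an unadjusted p under 0.05, 574 and 526). Leaving out a letter reversed the direction of none of the 594 genes. This was nearly fixed in advance, since all of them moved the same way in every letter.

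**Figure D1:**
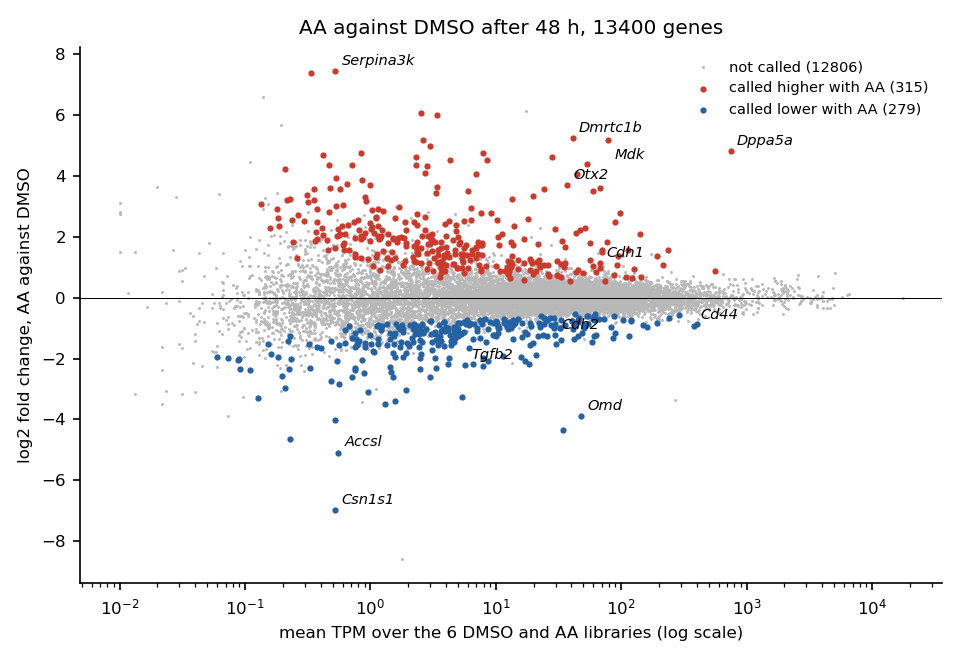
Log2 fold change with AA against DMSO (vertical axis, fitted over 3 letters) against the mean TPM of the 6 libraries (horizontal axis, log scale, values below 0.01 drawn at 0.01) for the 13400 tested genes. The 315 genes called higher (red) reach larger changes than the 279 called lower (blue), and most of the largest changes are at levels under 10 TPM.

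Many of the genes that rose lay beside another gene that rose on the chromosome. Another gene that rose began within 200 kb of 86 of the 315 (27.3%), compared with 10.3% of the 13029 other tested genes with a position. For the falls it was 19 of 277 (6.86%), compared with 4.89% of the others. Within 100 kb the shares were 22.9% and 5.29% for the rises. Among the rises called with the GC correction and the block the shares within 200 kb were 32.7% and 21.3%, and among the falls 16.9% and 17.5%. Without the block they were 20.7% and 3.46% for the rises. For the falls without the block they were 6.45% (4 of 62) and 1.11%, so the contrast between rises and falls depended on the setting. AA+2i against 2i shares no library with AA against DMSO but was fitted in the same model. There 120 of 399 genes called higher (30.1%) had such a neighbour within 200 kb, against 13.2% of the others. For the genes called lower it was 4 of 205 (1.95%), against 3.62%. These shares are descriptions with no test, and neighbours of one family, which can share reads, are among them. The measure was chosen after the values were seen.

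Genes that rose formed 8 runs of 3 or more with starts less than 200 kb apart, with 30 genes in all, and genes that fell formed 1. The longest run, of 6 genes, lay on chromosome 6 between 122555421 and 122919893 of the mm9 build. It held Gdf3 (a TGF-beta family ligand), Dppa3, Nanog, Slc2a3 (the glucose transporter GLUT3, which also carries dehydroascorbate), Clec4a1 and Clec4a3 (C-type lectin receptors). Of the 8 tested genes that began in this stretch only Foxj2 and Necap1 were not called, and all 6 of the others also rose in AA+2i against 2i. Clec4a3 was at 0, 0.04 and 0.47 TPM in DMSO A, B and C and at 5.25, 3.35 and 6.58 in AA A, B and C, an order of letters kept in what follows. Clec4a1, which lies beside it, went from 8.20, 8.69 and 8.67 TPM to 23.0, 12.8 and 19.5. Neither gene is among those known for pluripotency, and their AA libraries lay above every DMSO library.

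The run on chromosome 16 (48283848 to 48631018, mm9) was Dppa4, Dppa2 and Morc1, the only 3 tested genes to begin there. Morc1, a gene needed for transposon silencing in male germ cells, was at 10.6, 5.85 and 11.8 TPM with DMSO and at 165, 86.8 and 77.3 with AA, a log2 fold change of 3.51 ± 0.33 (SE, adjusted p = 0.00099). On chromosome 9 (78078463 to 78291044) Gsta1, Gm10639, Dppa5a, Ooep and E330016A19Rik rose, and of the tested genes between them only Ddx43 was not called. Ooep, an oocyte protein that is also expressed in pluripotent cells, went from 29.4, 21.9 and 53.3 TPM to 112, 95.2 and 152. Gsta1 and Gm10639 are of one glutathione transferase family and may share reads, and so may Tex19.1 and Tex19.2.

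On the X chromosome (99709314 to 100063310) Phka1, Gm9112, Dmrtc1b and 1700031F05Rik rose, which are all of the 4 tested genes to begin there. Dmrtc1b, of the doublesex and mab-3 related family, was at 1.80, 0.70 and 5.10 TPM with DMSO and at 55.1, 69.8 and 113 with AA (log2 fold change 5.24 ± 0.51, adjusted p = 0.00104). It has near-identical copies among which reads could be divided. Phka1, a subunit of phosphorylase kinase in glycogen breakdown, went from 8.82, 7.02 and 6.76 TPM to 24.4, 16.3 and 17.7. On chromosome 8 Triml1, Triml2 and Zfp42 rose together, on chromosome 11 Sectm1a, Tex19.2 and Tex19.1, and on chromosome 13 Serpinb6b, Serpinb9 and Serpinb9b. The last run of rises, on chromosome 10, held Gpr182 and the short-chain dehydrogenases Rdh16 and Sdr9c7. The single run of falls was on chromosome 5 and held Mthfd2l, Ereg and Areg. The genes of the runs were named after their values were seen. Without the block, 14 of the 33 genes of the 9 runs had an adjusted p of 0.05 or more, from 0.0507 for Clec4a1 to 0.282 for Tex19.2.

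**Figure D2:**
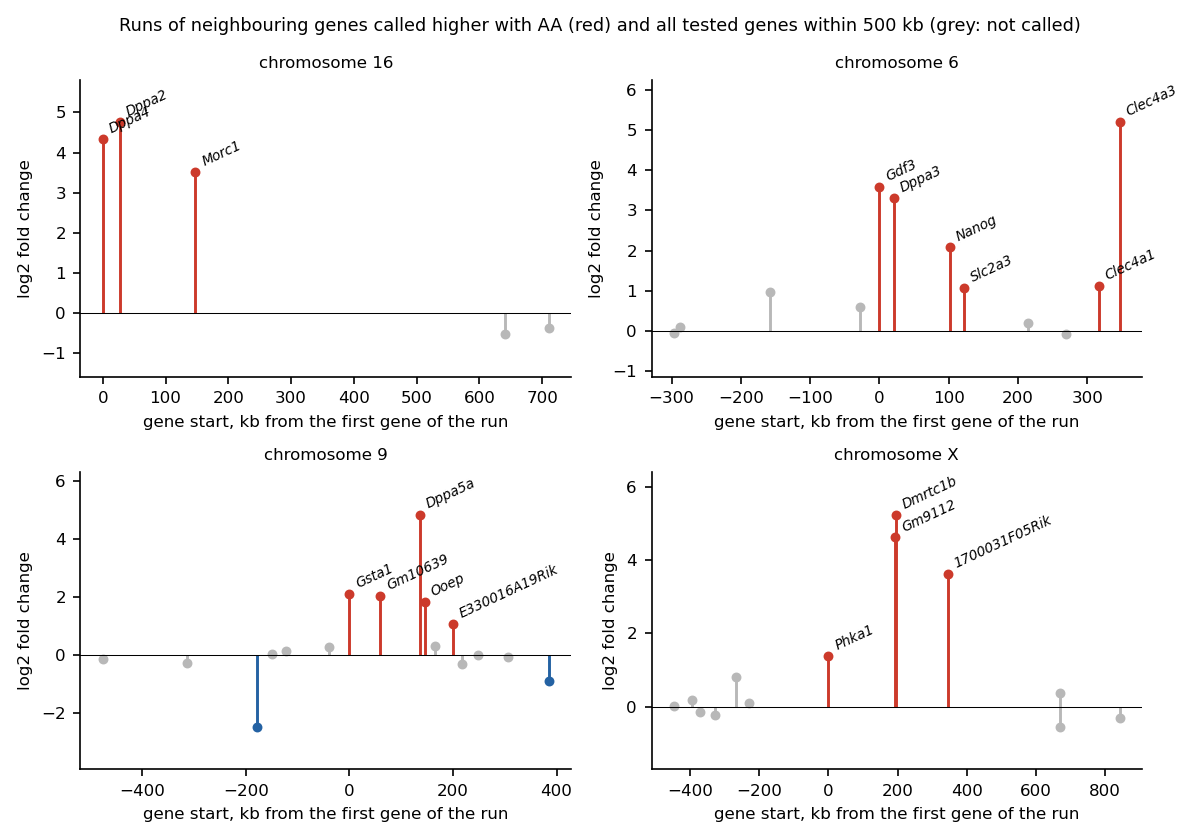
Log2 fold change with AA against DMSO (vertical axes) of each tested gene by the distance of its start from the first gene of the run in kb (horizontal axes), for 4 of the 8 runs of genes called higher and the 500 kb on each side. The called genes (red, named) stand beside genes near 0 (grey), and on chromosome 9 genes called lower (blue) lie within the same window.

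The promoters of the genes that rose held fewer CpG dinucleotides than those of all tested genes, which is given as a description with no test. From 250 bases before to 50 bases after the start of the longest coding transcript, in mm9, the ratio of observed to expected CpG had a median of 0.459 over 312 genes that rose, 0.676 over 274 that fell and 0.746 over 13282 tested genes. It was under 0.4 for 43.3%, 26.6% and 18.2% of these promoters. Weakly expressed genes have CpG-poor promoters more often, so the shares are also given by the mean TPM over the 12 libraries. Between 10 and 100 TPM, 36 of 76 rises (47.4%) and 12 of 81 falls (14.8%) had a ratio under 0.4, compared with 10.3% of all tested genes of that level. Between 1 and 10 TPM it was 42.6% of the rises, 30.1% of the falls and 28.6% of all. Under 1 TPM the shares were 41.2%, 39.1% and 43.1%, so the weakest genes showed no such excess.

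The upstream sequences of 4 genes of these runs show the range of CpG content among genes that rose together. They are the 250 bases before the start on the gene's strand, 5′ to 3′, from RefSeq on GRCm38.p6, a build other than that of the files, and capitals mark each CG. They were chosen because each gene has 1 entry among the RefSeq promoters, which held 392 of the 594 called genes. Serpinb9b holds 2 (observed to expected 0.171), Zfp42 9 (0.423), Triml2 8 (0.599) and Tex19.1 15 (0.643).
Serpinb9b, chr13:33027164-33027413, plus strand: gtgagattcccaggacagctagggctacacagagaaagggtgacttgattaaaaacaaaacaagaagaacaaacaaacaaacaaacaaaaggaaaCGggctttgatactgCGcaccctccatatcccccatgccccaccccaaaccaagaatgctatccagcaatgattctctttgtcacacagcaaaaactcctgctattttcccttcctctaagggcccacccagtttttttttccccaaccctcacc
Zfp42, chr8:43307010-43307259, minus strand: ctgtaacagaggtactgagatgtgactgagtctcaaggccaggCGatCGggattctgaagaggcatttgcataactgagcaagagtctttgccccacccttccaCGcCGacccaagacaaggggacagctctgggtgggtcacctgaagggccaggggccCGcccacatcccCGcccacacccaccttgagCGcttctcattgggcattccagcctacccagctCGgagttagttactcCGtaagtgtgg
Triml2, chr8:43180286-43180535, plus strand: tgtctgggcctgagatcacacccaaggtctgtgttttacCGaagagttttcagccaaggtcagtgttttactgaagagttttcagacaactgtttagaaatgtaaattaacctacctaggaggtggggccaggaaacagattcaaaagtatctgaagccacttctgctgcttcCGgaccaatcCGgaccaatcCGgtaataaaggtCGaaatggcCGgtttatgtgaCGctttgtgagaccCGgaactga
Tex19.1, chr11:121145893-121146142, plus strand: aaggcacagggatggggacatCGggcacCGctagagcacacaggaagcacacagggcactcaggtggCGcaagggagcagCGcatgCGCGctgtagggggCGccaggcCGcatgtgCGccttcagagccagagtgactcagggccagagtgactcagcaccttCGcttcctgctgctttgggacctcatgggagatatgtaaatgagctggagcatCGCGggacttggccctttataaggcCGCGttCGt

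Serpinb9b, a relative of the granzyme B inhibitor, was at 129, 86.2 and 105 TPM with DMSO and at 405, 232 and 201 with AA. Tex19.1, which acts against transposons in germ cells, was at 0.28, 0.65 and 1.33 TPM with DMSO and at 11.1, 18.1 and 19.4 with AA, a log2 fold change of 4.54 ± 0.35. Within this pair the gene with the CpG-poorer promoter was the more abundant, and the other had the larger change. A relation of CpG content to level or size of change was not tested.

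The largest rises were mostly of genes that are low with DMSO. Serpina3k, a secreted protease inhibitor, was at 0 in the 3 DMSO libraries and at 1.15, 0.73 and 1.26 TPM with AA, which is at least 21.3-fold higher against a limit of 3 counts over the DMSO group. Serpina3m, its neighbour on chromosome 12, went from 0, 0.08 and 0.22 TPM to 4.33, 4.60 and 11.3. Sectm1a, a secreted and transmembrane protein of immune cells, went from 0.15, 0 and 0.15 TPM to 5.24, 5.05 and 4.72. Mep1b, the beta subunit of the metalloprotease meprin, and Rgs22, a regulator of G protein signalling, rose by 4.61 ± 0.52 and 4.77 ± 0.61 on the log2 scale. These serpins belong to a multigene family, so reads could be divided among copies.

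Mdk (midkine, a heparin-binding growth factor) combined a large change with a high level. It was at 0.36, 7.40 and 2.55 TPM with DMSO and at 21.8, 164 and 276 with AA (log2 fold change 5.17 ± 0.81, adjusted p = 0.00859). The letters differed widely within each group, and every AA library lay above every DMSO library. Utf1, a chromatin-associated factor of embryonic stem cells, was at 0, 0.20 and 0 TPM with DMSO and at 0.18, 2.63 and 14.8 with AA, so its groups overlapped, and its adjusted p was 0.0499 with the block and 0.171 without. In TPM the largest rises were of Dppa5a (by 1385 TPM), Cyp2b23 (319), Tdgf1 (231), Gsta1 (174), Serpinb9b (172), Mdk (150), Gstp2 (146) and Slc2a3 (144). Cyp2b23, a cytochrome P450 whose family members are alike in sequence, was already at 372, 438 and 388 TPM with DMSO and went to 846, 630 and 677.

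Large falls were measured for the following genes. Omd (osteomodulin, a leucine-rich proteoglycan of bone matrix) fell from 115, 55.7 and 97.8 TPM to 2.74, 6.61 and 8.13, by 3.90 ± 0.51 on the log2 scale (adjusted p = 0.00359). The groups were far apart, with the highest AA library below the lowest DMSO library. The chemokine Ccl2 fell from 1.43, 2.98 and 4.22 TPM to 0.41, 0.14 and 0.31, and Ccl20 from 1.93, 1.65 and 3.62 to 0.14, 0.14 and 0.32. Frzb, a secreted Wnt antagonist, fell from 3.14, 3.41 and 3.70 TPM to 0.21, 0.43 and 0.58. Edn1 (endothelin 1) fell from 3.77, 4.86 and 6.63 TPM to 0.67, 0.55 and 1.45. Csn1s1, a casein, was at 1.33, 0.88 and 0.94 TPM with DMSO and at 0 with AA, which is at least 19.6-fold lower against 3 counts over the AA group. Accsl and the predicted genes Gm6813 and Gm7609 fell by 5.09, 4.34 and 3.27 on the log2 scale.

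In TPM the largest falls were of Cd44, the hyaluronan receptor, at 629, 588 and 291 with DMSO and 403, 210 and 164 with AA, and of Cd109, a membrane protein that binds TGF-beta, at 630, 661 and 274 and 451, 229 and 166. AA was below DMSO in each letter, although the groups overlapped. Axl, a receptor tyrosine kinase of mesenchymal cells, went from 153, 317 and 177 TPM to 101, 110 and 98.7 with no overlap. Tpm1 (tropomyosin 1) and the membrane protein Tspan7 fell by 0.66 and 0.57 on the log2 scale. So did Mdm4, a p53 inhibitor (0.84), Bckdhb, of branched-chain amino acid breakdown (1.26), and Hmgn3, a nucleosome-binding protein (0.90). For these 8 genes, Ccl20, Edn1 and Gm6813 the adjusted p without the block was from 0.0556 (Axl) to 0.624 (Cd109), and Tspan7 also had an adjusted p of 0.189 with the GC correction and the block.

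**Figure D3:**
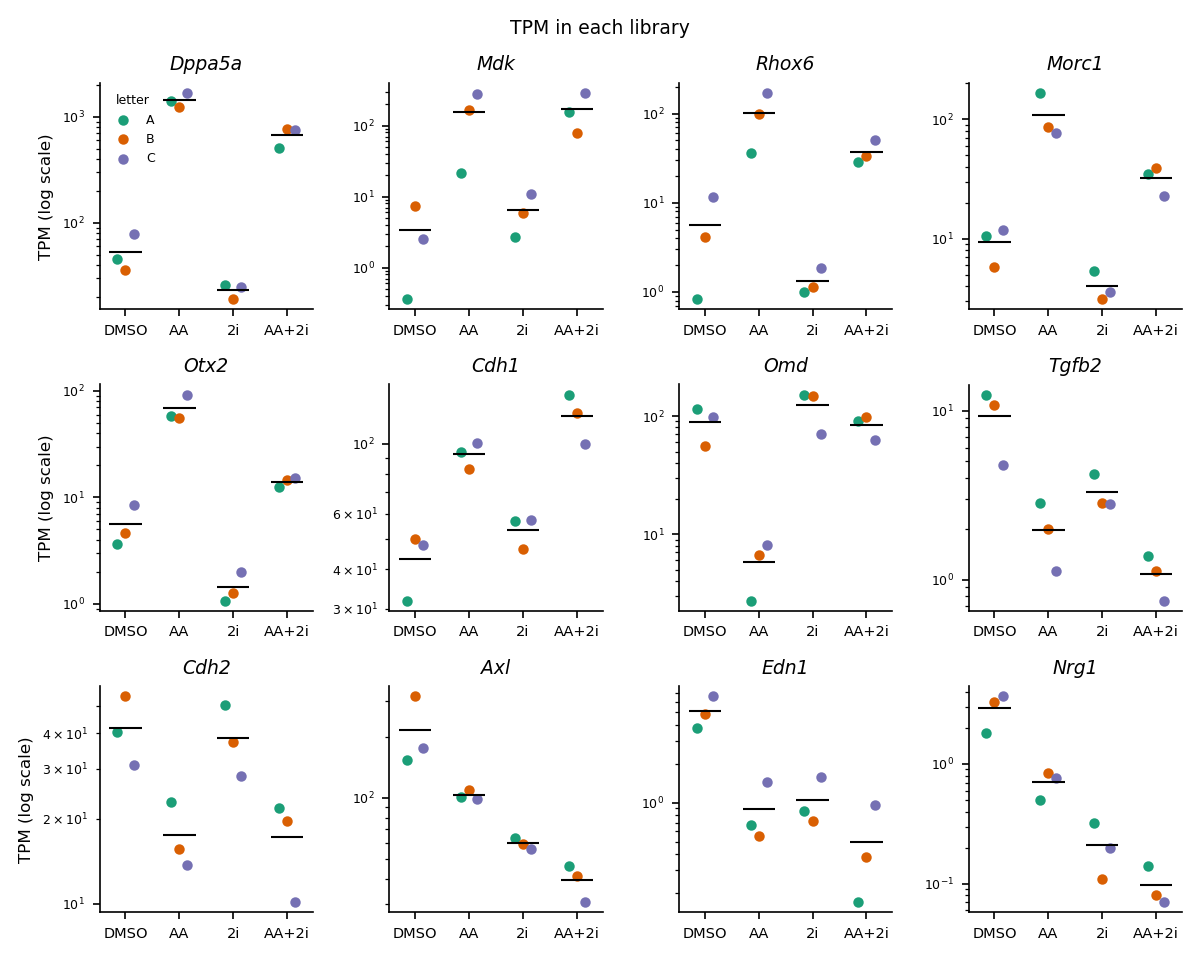
TPM (vertical axes, log scale) of 12 genes in each of the 12 libraries by condition (horizontal axes), with the letter as colour and the mean of 3 libraries as a bar. The first 6 genes are higher with AA than with DMSO in every letter, the other 6 are lower, and Omd is low in the AA libraries alone.

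The remaining results go by gene list, 43 lists with 1171 tested genes, of which 56 rose and 42 fell. The other 259 rises and 237 falls were in no list. Each list's count is read against the 2.35% and 2.08% called among all tested genes, and its median against −0.01. No list was tested as a set. Leaving out letter A, B or C left 6, 7 or 3 of the 16 rises in the naive list below, 4, 1 or 0 of the 7 in the epithelial list and 5, 4 or 1 of the 5 in the germline list, and 2, 0 or 0 of the 8 falls in the matrix list.

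**Figure D4:**
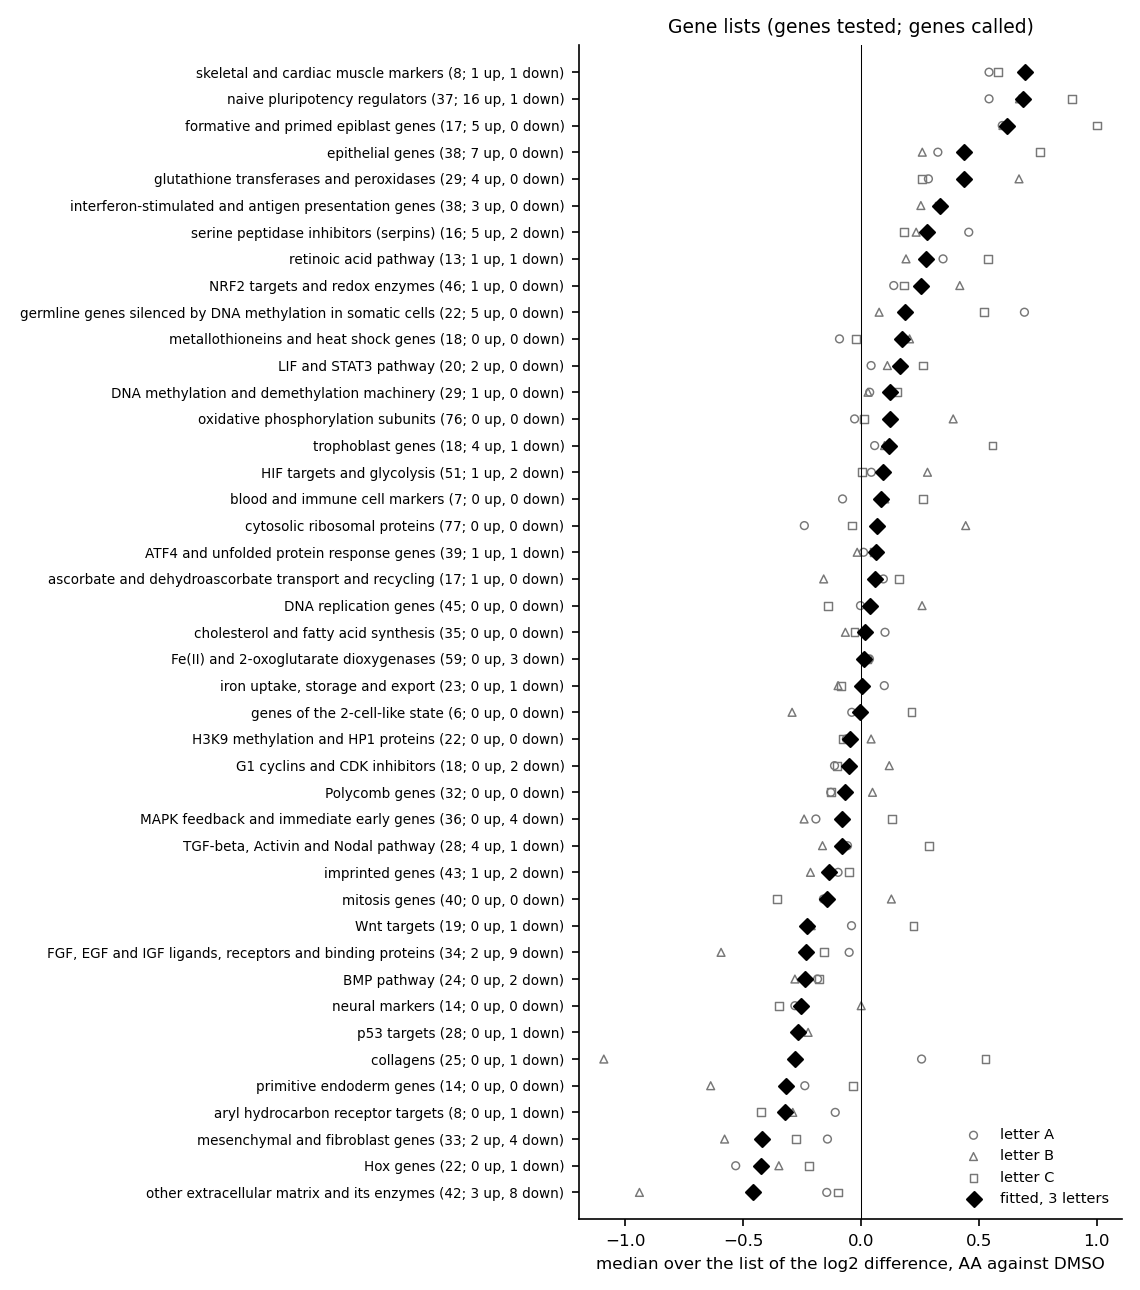
Median log2 difference between AA and DMSO over the tested genes of each list (horizontal axis), as fitted over 3 letters (diamonds) and in each letter (open symbols). The naive and formative pluripotency, epithelial and glutathione lists are above 0 in every letter. So are others, such as the muscle (8 tested genes, fitted median 0.69), interferon, retinoic acid, serpin, NRF2 and germline lists. The matrix and mesenchymal lists are below 0 in every letter. So are others, such as the Hox (fitted median −0.42), p53 target (−0.27), BMP and primitive endoderm lists. The collagens differ in sign between letters.

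The list for naive pluripotency, the state of the preimplantation epiblast, holds regulators and other marker genes. Of its 37 tested genes 16 rose and 1 (Jam2, a junctional adhesion molecule) fell. The median log2 fold change was 0.69, with 26 genes above 0 and 11 below. Klf2, Klf4, Klf5, Tbx3, Nr5a2, Nr0b1, Prdm14 and Tet2 were among the members not called. Nanog, Zfp42, Gdf3, Dppa2, Dppa3, Dppa4, Dppa5a and Tdgf1 rose by between 1.56 and 4.83. The rises were not confined to abundant genes. Dppa5a reached 1419, 1232 and 1665 TPM with AA, but Esrrb, an orphan nuclear receptor of the naive network, only 0.37, 0.47 and 1.22, from 0.23, 0.15 and 0.31. Without the block 8 rose, and Esrrb (adjusted p = 0.228) and Dppa3 (0.105) were not among them. Of 17 tested genes of the formative and primed epiblast, the later state, 5 rose and none fell, with a median of 0.62. They were Otx2, Evx1, Fgf5, Lefty2 and the DNA methyltransferase Dnmt3b.

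Otx2, a homeobox factor that drives exit from the naive state, was at 3.66, 4.58 and 8.46 TPM with DMSO and at 58.6, 55.8 and 91.9 with AA, a log2 fold change of 3.70 ± 0.20 (adjusted p = 8.05e-05). Markers of the naive and of the later state therefore rose in the same libraries. Fgf5 went from 0.29, 0.11 and 0.43 TPM to 1.38, 1.05 and 3.68, and Dnmt3b from 9.21, 9.08 and 17.6 to 17.6, 18.3 and 44.9. Without the block only Otx2 and Lefty2 were called (adjusted p = 0.186, 0.157 and 0.34 for Evx1, Fgf5 and Dnmt3b). Values of the factors also carried as transgenes did not pass the test. Pou5f1 was at 1865, 9673 and 3795 TPM with DMSO and 1902, 4447 and 4407 with AA, Sox2 at 12.6, 98.1 and 15.0 and 21.6, 28.1 and 56.2, and Klf4 at 34.1, 530 and 142 and 35.2, 251 and 280. Myc was at 225, 864 and 255 TPM with DMSO and 138, 286 and 294 with AA. The spread between letters was larger than the difference between groups for each.

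Several epithelial genes rose and several mesenchymal genes fell. Cells leave the fibroblast state through a mesenchymal to epithelial transition, and these lists hold its junction proteins and transcription factors. Of 38 tested epithelial genes 7 rose and none fell (18.4% against 2.35% of all), with a median of 0.44, and 34 had a log2 fold change above 0. Cdh1 (E-cadherin) went from 31.8, 50.0 and 47.8 TPM to 93.7, 82.8 and 101 (log2 fold change 1.13 ± 0.17, adjusted p = 0.00655). Epcam, an epithelial adhesion molecule, went from 66.1, 98.7 and 98.3 TPM to 124, 146 and 228. The others were Rab25, a GTPase of epithelial traffic, the transcription factor Grhl2, the splicing factor Esrp1, the keratin Krt18 and the claudin Cldn7. Without the block 3 were called (Cdh1, Rab25 and Grhl2). Thy1, a fibroblast surface marker, was at 2.64, 5.55 and 7.21 TPM with DMSO and at 6.69, 15.1 and 15.99 with AA, and did not pass the test (adjusted p = 0.16).

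Of 33 tested mesenchymal and fibroblast genes 4 fell and 2 rose, with a median of −0.42. Tgfb2, a TGF-beta ligand, fell from 12.4, 10.9 and 4.79 TPM to 2.82, 1.98 and 1.13 (by 2.20 ± 0.23, adjusted p = 0.00146). Cdh2 (N-cadherin) fell from 40.3, 53.9 and 30.9 TPM to 22.9, 15.7 and 13.7. Zeb2, a repressor of Cdh1, fell from 2.01, 1.19 and 0.95 TPM to 0.54, 0.27 and 0.22, and the fourth was the matrix protein Fbn1. Its relative Zeb1 was at 30.9, 21.0 and 16.3 TPM with DMSO and 38.2, 22.5 and 16.5 with AA (adjusted p = 0.649). The rises were of Loxl1 and of Igfbp5, which binds IGF. Without the block 1 fell (Tgfb2) and 1 rose (Igfbp5), and the adjusted p was 0.0701 for Zeb2 and 0.0645 for Cdh2.

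Among 42 tested genes of the extracellular matrix other than collagens, 8 fell (19% against 2.08% of all) and 3 rose, with a median of −0.46. Tnc (tenascin C) fell from 0.29, 0.70 and 0.64 TPM to 0.09, 0.08 and 0.16, Thbs1 (thrombospondin 1) from 7.32, 14.9 and 14.6 to 3.51, 3.07 and 7.13, and Ctgf from 118, 172 and 162 to 83.3, 63.6 and 126. Fbn1, Fbn2, Fbln5, Lama2 and Serpine2 also fell. Vcan (versican), Lama3 and Loxl1, which crosslinks elastin, rose. Apart from Ctgf the genes that fell were weakly expressed, and the abundant fibronectin, Fn1, was at 246, 732 and 197 TPM with DMSO and 307, 350 and 231 with AA (adjusted p = 0.762). Without the block 3 fell and 1 rose, and with the GC correction and the block 13 and 3. Of 25 tested collagens only Col4a6 passed, at 0.07, 0.13 and 0.14 TPM with DMSO and 0.03, 0.01 and 0.06 with AA. The median over the collagens was 0.26 in letter A, −1.09 in B and 0.53 in C, so the letters differed in sign.

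Several growth factor ligands fell. Of 34 tested ligands, receptors and binding proteins of the FGF, EGF and IGF families 9 fell (26.5%) and 2 rose, with a median of −0.23. The falls held 4 ligands of the EGF receptor, which acts upstream of ERK. Areg (amphiregulin) fell from 13.5, 13.1 and 17.1 TPM to 7.85, 4.78 and 6.67, Ereg (epiregulin) from 1.88, 1.94 and 1.10 to 0.55, 0.35 and 0.52, Hbegf from 2.37, 3.15 and 3.96 to 1.37, 1.27 and 1.39, and Btc (betacellulin) from 0.83, 0.56 and 0.31 to 0.24, 0.18 and 0.12. Nrg1, a ligand of the related ERBB receptors, fell from 1.81, 3.29 and 3.68 TPM to 0.50, 0.84 and 0.77, with no overlap between the groups. Fgf9 (adjusted p = 0.0443, and 0.0538 with the GC correction and the block), Igf2, Igfbp3 and the insulin receptor substrate Irs1 made up the other falls, and Fgf5 and Igfbp5 the rises. The receptor Egfr was at 68.3, 75.8 and 33.8 TPM with DMSO and 66.3, 38.1 and 21.1 with AA (adjusted p = 0.106). Without the block 2 fell (Ereg and Nrg1) and 1 rose (Igfbp5).

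The 36 tested genes of ERK feedback and the immediate early response held 4 falls, the ligands Ereg, Areg and Hbegf and the phosphatase Dusp4, and no rise. Dusp6, a standard readout of ERK activity, was at 72.5, 58.1 and 56.9 TPM with DMSO and 75.2, 57.96 and 59.9 with AA, a difference of 0.06 ± 0.16 on the log2 scale (adjusted p = 0.887). The median of this list was −0.08. Of 28 tested genes of the TGF-beta, Activin and Nodal pathway Tdgf1 (a Nodal co-receptor), Gdf3, Lefty2 (a Nodal inhibitor) and Pmepa1 rose and Tgfb2 fell. Of 24 BMP pathway genes the target genes Id2 and Id4 fell, of 19 Wnt targets only Wif1, a secreted Wnt inhibitor, fell, and of 20 genes of the LIF pathway Gbx2 and Tcfcp2l1 rose. Ereg is the only one of these ERK genes called without the block, where Dusp4, Id2, Id4, Wif1, Gbx2, Tcfcp2l1 and Pmepa1 had adjusted p-values from 0.0507 (Wif1) to 0.571 (Gbx2).

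Transcripts of the enzymes that use ascorbate were called lower in 5.08% and higher in 0%, against 2.08% and 2.35% of all tested genes. Of 59 tested Fe(II) and 2-oxoglutarate dioxygenases none rose in edgeR's test (3 did at an unadjusted p under 0.05) and 3 fell, with a median log2 fold change of 0.01. With the GC correction and the block 4 rose and 6 fell, and DESeq2 called 1 higher and 3 lower. P4ha1, a collagen prolyl hydroxylase, went from 70.0, 84.3 and 45.5 TPM to 58.1, 41.9 and 29.2, Jhdm1d, a histone demethylase, from 58.8, 38.4 and 15.9 to 38.2, 15.3 and 9.69, and Asph, which hydroxylates aspartate, from 19.01, 18.6 and 9.66 to 15.0, 8.05 and 5.70. The groups overlapped for all 3, and without the block their adjusted p-values were 0.602, 0.878 and 0.651. Tet1 was at 46.6, 36.0 and 20.6 TPM with DMSO and 65.5, 31.7 and 24.5 with AA (0.22 ± 0.17, adjusted p = 0.555). Kdm3b differed by 0.01 ± 0.11 and Egln1, a HIF prolyl hydroxylase, by 0.17 ± 0.15. Of 17 genes of ascorbate transport and recycling only Slc2a3 rose, and Slc23a2, the sodium-coupled ascorbate transporter, was at 14.1, 21.9 and 15.5 TPM with DMSO and 15.7, 12.8 and 13.4 with AA.

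Targets of HIF and glycolysis, 51 tested genes, held Slc2a3 as the only rise and P4ha1 and the enolase Eno2 as falls, with a median of 0.10. Slc2a3 went from 84.7, 151 and 194 TPM to 268, 240 and 353 (1.08 ± 0.17, adjusted p = 0.00912, and 0.184 without the block). The glycolytic genes Pgk1 and Ldha differed by −0.06 ± 0.26 and −0.04 ± 0.21. Of 29 glutathione transferases and peroxidases Gsta1, Gstp2, Gstk1 and Gpx2 rose, with a median of 0.44, and all 4 were also called without the block. Of 46 NRF2 targets and redox enzymes, a list that responds to oxidants, only Htatip2 rose, with a median of 0.26. Hmox1 was at 41.5, 76.8 and 109 TPM with DMSO and 76.9, 122 and 155 with AA, and Nqo1 at 97.8, 62.0 and 126 and 185, 126 and 146. Both were higher in each letter and did not pass the test (adjusted p = 0.0833 and 0.167), but passed with the GC correction and the block, where 8 of this list were called higher and 2 lower. Of 23 genes of iron uptake and storage only Steap1, a metalloreductase, fell (adjusted p = 0.393 without the block).

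Of 22 tested germline genes that DNA methylation silences in somatic cells 5 rose (22.7%) and none fell, and 85 of this list were in the files, most of them too low to test. Rhox6 went from 0.83, 4.13 and 11.7 TPM to 36.4, 99.4 and 169 and Rhox9, of the same homeobox cluster on the X chromosome, from 1.79, 4.66 and 8.53 to 27.2, 77.2 and 148. Piwil2, of the piRNA pathway, Tex19.1 and Dppa3 were the others. The Rhox genes resemble each other, and reads could be divided between them. Every AA library lay above every DMSO library for both genes. Of 18 tested trophoblast genes Rhox6, Rhox9, Krt18 and Hand1 rose and Gcm1, a syncytiotrophoblast factor, fell from 1.37, 1.76 and 4.33 TPM to 0.52, 0.26 and 0.48. Cdx2 was at most 0.23 TPM in the 6 libraries. Elf5, too low to test, went the other way, from 0, 0.02 and 0 TPM to 0.25, 0.24 and 0.42. Krt18, Hand1 and Gcm1 had adjusted p-values of 0.456, 0.661 and 0.107 without the block.

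Among genes of chromatin marks, the share called higher was 3.45% for DNA methylation and 0% for H3K9 methylation and Polycomb, against 2.35% of all tested genes. Of 29 genes of DNA methylation and demethylation only Dnmt3b rose, and none of 22 genes of H3K9 methylation or of 32 Polycomb genes was called by edgeR, with medians of −0.05 and −0.07. At an unadjusted p under 0.05 there were 1 and 2, DESeq2 called 0 and 1, limma 0 in both, and the fit with the GC correction and the block 1 in both. Of 43 imprinted genes Asb4 rose and Plagl1 and Igf2 fell. Plagl1, a zinc finger factor of an imprinted gene network, went from 2.60, 2.01 and 2.49 TPM to 0.53, 0.30 and 0.68. No gene of the 2-cell-like state (6 tested) or of primitive endoderm (14 tested) was called in edgeR's test, where 1 and 3 had an unadjusted p under 0.05. DESeq2 and limma called 0, and with the GC correction and the block 2 primitive endoderm genes were called lower.

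Housekeeping groups were not called. None of the 45 DNA replication genes, 40 mitosis genes, 76 subunits of oxidative phosphorylation, 77 cytosolic ribosomal proteins, 35 genes of cholesterol and fatty acid synthesis or 18 metallothionein and heat shock genes passed edgeR's test. In the same order 2, 3, 4, 2, 4 and 1 had an unadjusted p under 0.05. DESeq2 called 1, a cholesterol gene, and limma 0, while with the GC correction and the block 1, 1, 2, 0, 3 and 1 were called. Their medians lay between −0.14 and 0.18. The ribosomal proteins had a median difference of −0.24 in letter A, 0.44 in B and −0.04 in C. Of 18 G1 cyclins and CDK inhibitors Cdk6 and Ccnd2 (cyclin D2) fell, from 64.6, 66.4 and 39.1 TPM to 46.5, 38.0 and 23.1 and from 149, 113 and 118 to 112, 72.7 and 51.5. Cdkn1a, the p53 target p21, was at 228, 332 and 406 TPM with DMSO and 234, 327 and 329 with AA. Plk2 was the only call among 28 p53 targets and fell. These falls had adjusted p-values of 0.593, 0.468 and 0.37 without the block.

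Of 38 interferon-stimulated and antigen presentation genes Oasl2, Psmb9 and Zbp1 rose and none fell, with a median of 0.34, and none of the 3 was called without the block (adjusted p = 0.436, 0.258 and 0.577). Of 16 tested serpins 5 rose (Serpina3k, Serpina3m, Serpinb6b, Serpinb9 and Serpinb9b) and 2 fell (Serpine2 and Serpini1). In the retinoic acid pathway (13 tested) Crabp2, which carries retinoic acid to its receptor, rose from 19.5, 20.7 and 36.1 TPM to 66.2, 104 and 91.1. Rdh10, which makes retinaldehyde, fell from 30.6, 25.9 and 27.5 TPM to 11.6, 7.68 and 9.39, and both were also called without the block. Of 39 genes of ATF4 and the unfolded protein response Trib3 rose and Vldlr fell, and of 22 Hox genes Hoxd13 fell. Of 8 targets of the aryl hydrocarbon receptor only Ahr itself fell, and of 8 muscle genes the myosin light chain Mylpf rose, from 6.31, 13.1 and 32.2 TPM to 37.3, 53.6 and 120, and Mef2c fell. None of these last 6 was called without the block, where their adjusted p-values were from 0.121 (Mef2c) to 0.729 (Vldlr). No neural marker (14 tested) and no blood or immune marker (7 tested) was called in edgeR's test, where 5 and 0 had an unadjusted p under 0.05. DESeq2 called 2 and 0, limma 0 in both, and the fit with the GC correction and the block 2 and 0.

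AA+2i against 2i gave a second reading of AA in cells under the inhibitors, from other libraries, with 400 genes called higher and 206 lower (2.99% and 1.54% of the tested genes). The pairing by letter rests on less here, since the 2i and AA+2i libraries of letter B correlated at 0.07 in their deviations from the group means, and without the block 102 and 20 were called. Of the 315 genes raised by AA alone 308 (97.8%) moved up, and 182 (57.8%) were called. Of the 279 lowered genes 249 (89.2%) moved down, and 100 (35.8%) were called. Both comparisons were fitted in 1 model of the 12 libraries, with a shared estimate of spread per gene and shared letter terms. Calls in both are therefore not independent. The median log2 fold change on 2i was 1.39 for the first group, which had 1.78 with AA alone, and −0.72 for the second, which had −1.18. The rises therefore recurred in a larger share than the falls, a difference that was not tested. Without the block 72 and 16 of the genes were called in the second reading, and with the GC correction and the block 222 and 145.

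Dppa5a, Mdk and Otx2 rose by 4.88, 5.04 and 3.35 on the log2 scale on 2i, beside 4.83, 5.17 and 3.70 with AA alone. Cdh1 rose on 2i by 1.22 and Cdh2 fell by 1.18. Most of the genes that AA raised were highest with AA alone. Of the 315, 242 had their highest mean TPM of the 4 conditions with AA and 73 with AA+2i, and 219 had their lowest with 2i. Otx2, for example, had a mean of 68.8 TPM with AA, 5.57 with DMSO, 1.44 with 2i and 14.1 with AA+2i. Dppa3 and Nanog, by contrast, were highest with AA+2i, at 13.8 and 36.6 TPM. Of the 279 lowered genes 187 were highest with DMSO and 83 with 2i. These ranks reuse the libraries that called the genes, which favours AA among the rises and DMSO among the falls. The shares over all tested genes were not counted.

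**Figure D5:**
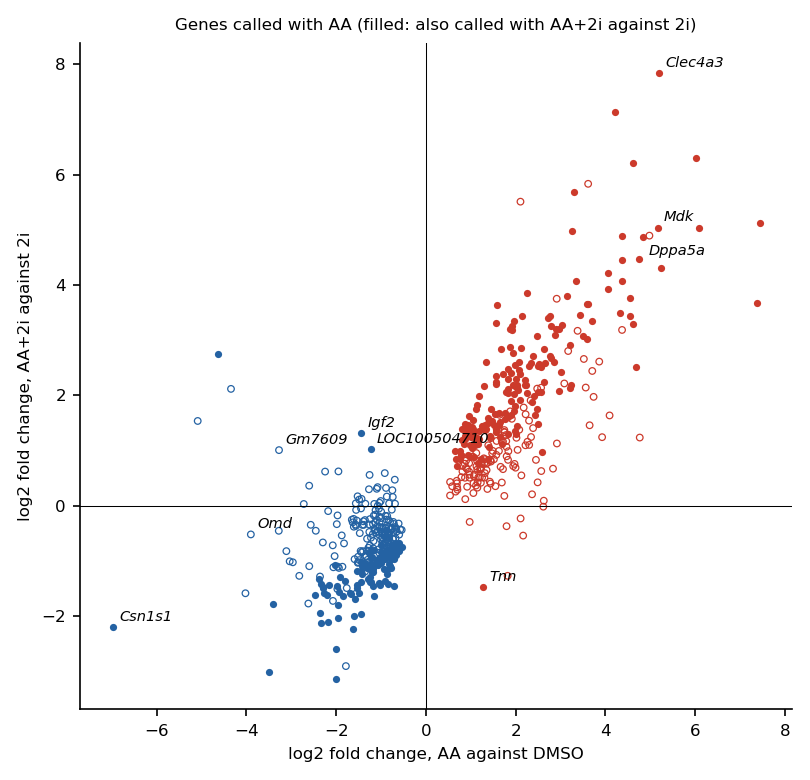
Log2 fold change with AA+2i against 2i (vertical axis) against that with AA against DMSO (horizontal axis) for the 315 genes called higher (red) and 279 called lower (blue) with AA alone. Filled points, 182 and 100 of them in the same direction, were also called in AA+2i against 2i, and 4 filled points lie in the opposite direction.

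Opposite calls were rare. Of the 594 genes, 1 that rose with AA fell on 2i (Tnn, a tenascin, log2 fold change 1.27 and −1.49) and 3 that fell with AA rose on 2i, among them Igf2 and LOC100504710. Without the block the rises of both on 2i were lost (adjusted p = 0.593 and 0.0839), as was the fall of Igf2 with AA (0.579). The test of the difference between both AA effects called 4 genes of the 13400 (0.0299%), among them Gm7609, Igf2 and LOC100504710, and at an unadjusted p under 0.05 there were 639. Tnn did not pass it (adjusted p = 0.139). Omd did not either (0.213), although it changed by −3.90 with AA alone and by −0.52 ± 0.45 on 2i. Igf2, the growth factor of an imprinted locus, fell with AA from 5.82, 5.24 and 9.28 TPM to 1.84, 1.77 and 4 and had means of 13.8 TPM with 2i and 33.6 with AA+2i.

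The calls differed with the GC content of the transcripts. The genes that fell were poorer in GC (median 46.9%) and longer (median 4304 bases) than all tested genes (50.3% and 3013), while those that rose were at 50.3% and 2422 bases. Under 42% GC 0.693% of 1299 genes rose and 3.31% fell, whereas at 58% or more 0.667% of 1500 rose and 0.0667% fell. The median log2 difference of all genes went from −0.28 in the lowest GC class to 0.25 in the highest. In letter C the highest class had a median of 0.79, in A 0.16 and in B −0.08. With the GC correction and the block 77 rose and 81 fell in the lowest class, and 40 and 39 in the highest. The part of GC content in single calls was not tested.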

How the data were processed

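RNA from 3 biological replicates (A, B and C) of DMSO, AA, 2i and AA+2i cultures was sequenced as single-end reads. Reads were trimmed, quality filtered and aligned by the authors with Bowtie2 to RefSeq transcripts of mm9, and RSEM 1.2.4 was run with a forward probability that ignores strand. This divides reads among similar genes and cannot tell antisense pairs apart. The expected counts the authors deposited are not normalized, the TPM they deposited are scaled by transcript length and library, and the deposited FPKM were used for 1 malformed TPM cell (0610011F06Rik in AA C, recomputed as 40.6). Rounded values entered edgeR 4.0.16 (R 4.3.3, RLE factors, quasi-likelihood, Benjamini-Hochberg) for those of the 20325 genes that reached 10 counts in 3 or more libraries, in 1 model of the 4 conditions with the letter as a block (6 residual degrees of freedom). EB-seq, which the study used, was not run.

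The letter was used as a block because the plan of the comparison named it, not because of the following correlations. Deviations from the group means of the AA and DMSO libraries of a letter correlated across genes at 0.62 to 0.90. The 2i and AA+2i libraries of a letter correlated at 0.07 to 0.82, and all 18 same-letter pairs at −0.57 to 0.90. The 36 pairs of different letters correlated at −0.82 to 0.77. AA+2i B correlated at 0.69, 0.77 and 0.77 with DMSO A, AA A and 2i A. With DMSO B, AA B and 2i B it was −0.57, −0.50 and 0.07, for a reason that was not tested. The block is therefore less well grounded for AA+2i against 2i and the interaction. Letter terms and spread are shared by all 12 libraries, so the calls of AA against DMSO also rest on these libraries. Each standard error was derived from the fold change and its F statistic and restates the test. The alternatives were TMM factors, DESeq2 1.42.0, limma 3.58.1 on log2(TPM + 1), other count filters, the 2 groups alone, no block, a GC curve per library (loess, span 0.4) and leaving out each letter. In letter differences 2 counts were added, or 0.5 and 5. The depth of 16173322 to 54392719 counts sets the counting error only. Gene positions, GC and promoter CpG are from the mm9 genome and GENCODE annotation, with 20140 of 20325 genes matched.

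Named are the 12 largest log2 changes each way and the 8 largest TPM changes each way among called genes of at least 1 TPM, up to 6 called members and the anchors of each list, and opposite calls, some left out. Called members beyond those 6, the genes of the chromosomal runs and some uncalled genes were added after their values were seen. One gene called for the interaction is not reported here. Genes and lists were chosen with earlier results of these data known.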

Additional observations from a re-analysis of the deposited data

Results flagged for a closer look

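The effect of AA differed between cells without and with 2i for 4 genes, of which 3 are described, by the interaction term in edgeR's quasi-likelihood test with the letter as a block (Benjamini-Hochberg over all tested genes). Gm7609, a predicted gene, had an interaction of 4.28 on the log2 scale (adjusted p = 0.00877). It was at 9.61, 11.98 and 7.93 TPM with DMSO and at 1.03, 0.90 and 0.99 with AA, and its means were 0.67 with 2i and 1.33 with AA+2i, so it was low in 3 of the 4 conditions. LOC100504710 had an interaction of 2.25 (adjusted p = 0.0113) and mean levels of 88.9 (DMSO), 36.3 (AA), 111 (2i) and 222 TPM (AA+2i). Igf2 had an interaction of 2.76 (adjusted p = 0.0178), a fall with AA in each letter and a rise on 2i with a log2 fold change of 1.32. Without the block neither held (adjusted p = 0.579 and 0.593), nor did the rise of LOC100504710 on 2i (0.0839). With the letter left out of the model 2 genes passed, and with any 1 letter of libraries left out none did. Gm7609 and LOC100504710 are predicted loci whose reads may be divided with similar genes.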

How the results depend on the processing

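All 135 called genes named here kept their direction under the 12 alternatives wherever they were tested. For the fits without a letter this was nearly fixed in advance, since called genes moved the same way in every letter. Of the 135 genes, 128 stayed called with TMM factors, 131 with DESeq2, 107 with limma, 133 with the GC correction and the block, 55 without the block and 7 without letter C. With AA against DMSO the counts higher and lower, 315 and 279, were 116 and 63 without the replicate block and 747 and 689 with the GC correction and the block. The higher count was 580 with only the 2 groups compared and 186 with at least 10 counts in every library. For AA+2i against 2i, 400 and 206 became 102 and 20 without the block, 876 and 640 with the GC correction and the block, and 236 higher under the stricter filter. The 206 became 324 with DESeq2, 132 with limma and 314 with the 2 groups alone. The 4 interactions became 49 with DESeq2, 27 with limma, 28 with the GC correction and the block, and 2 without the block, with the GC correction and no block, and under the stricter filter. Leaving out a letter gave 10 to 122 higher and 0 to 65 lower with AA, 0 to 119 and 0 to 37 for AA+2i against 2i, and 0 interactions. These fits have fewer samples, and the cause of the other differences was not tested. Adding 0.5 or 5 counts in place of 2 changes the size of a letter difference but cannot change its direction. TMM factors and no count filter kept all 5 counts within 1.5 times. The share of higher among called genes rests on the setting, as the counts show, and the depth and 3 letters limit calls of weakly expressed genes.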
